A study of Mus musculus with 5 samples.

Results

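The genes described here are 8 mouse genes that move zinc and related metals across membranes, bind them or sense them: the metallothionein genes Mt1 and Mt2, the importer genes Slc39a4, Slc39a5 and Slc39a14, the exporter genes Slc30a1 and Slc30a10, and the sensor gene Mtf1. They were taken by gene symbol from the deposited count table of small intestine, and 8 of 8 were found among its 19198 genes. All 8 also passed the filter on low counts, which left 14352 genes for testing. The Cre-positive group held 2 mice with Math1Cre*PR and floxed mAchR4, and the Cre-negative group held 3 littermates with floxed mAchR4 and no Cre. mAchR4 is the M4 muscarinic acetylcholine receptor (gene Chrm4), Math1 is the transcription factor Atoh1 of the intestinal secretory lineage, and Cre*PR is a recombinase that RU486 activates. All 5 mice, controls included, were given RU486 by gavage at 10 mg/kg on each of 4 days. RU486 also blocks the glucocorticoid receptor, and glucocorticoids are known inducers of metallothionein genes, so both groups shared that exposure and no undosed mouse was analysed here. No Cre-positive mouse with an unfloxed receptor gene was analysed here, so Cre activity and loss of the receptor cannot be told apart. The labels give neither age nor sex.

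Dietary zinc is taken up from the gut lumen by ZIP importers, which bring metal into the cytosol, and leaves the cytosol through ZnT exporters, which pass it to the blood side or into vesicles. Free zinc in the cytosol is held low by metallothioneins, small proteins whose cysteines bind metal ions. When cytosolic zinc increases, the transcription factor MTF1 binds short metal response elements in promoters and switches on Mt1, Mt2 and Slc30a1. Slc39a4 is the importer of the brush border, and its human counterpart is mutated in the inherited zinc deficiency acrodermatitis enteropathica. Slc30a10 and Slc39a14 are known mainly as manganese transporters.

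Mt1 and Mt2 lie side by side on the plus strand of chromosome 8, Mt2 at 94172664 to 94173568 and Mt1 at 94179082 to 94180327 (GRCm38, GENCODE M21), with 5513 bases between them. Each has 3 exons in its longest consensus coding transcript. Their coding sequences are shown without the stop codon because they carry the metal-binding chemistry and because their likeness decides whether reads of the pair can be separated; capitals mark the codons for cysteine, TGC and TGT.
Mt1 coding sequence: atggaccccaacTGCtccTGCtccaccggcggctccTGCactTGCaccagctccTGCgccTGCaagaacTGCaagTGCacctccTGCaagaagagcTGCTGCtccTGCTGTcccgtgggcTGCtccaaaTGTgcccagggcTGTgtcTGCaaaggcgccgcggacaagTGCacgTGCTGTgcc
Mt2 coding sequence: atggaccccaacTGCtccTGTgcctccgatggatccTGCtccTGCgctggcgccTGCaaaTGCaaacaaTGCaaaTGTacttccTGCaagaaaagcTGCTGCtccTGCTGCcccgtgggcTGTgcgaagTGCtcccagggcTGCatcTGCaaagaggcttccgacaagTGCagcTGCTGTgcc
In each gene 20 of 61 codons encode cysteine, and the 20 cysteine positions coincide. The coding sequences were identical at 145 of 183 bases (79.2%), but the longest stretch shared by the 2 transcripts was 20 bases. No 50-base window of the Mt1 transcript occurred in a transcript of another gene. Of 462 such windows of the Mt2 transcript, 210 (45.5%) also occurred, on either strand, in a transcript of the antisense gene Gm45774.

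The promoters of Mt1, Mt2 and Slc30a1 are shown because these are the genes of the group that MTF1 is known to switch on. Sequences are from RefSeq on GRCm38.p6, on the plus strand, and end before the first base annotated to the gene's own transcripts; capitals mark matches to the core of the metal response element, TGCACNC or TGCGCNC, on either strand, where matches may overlap.
Mt1, chr8:94178839-94179081: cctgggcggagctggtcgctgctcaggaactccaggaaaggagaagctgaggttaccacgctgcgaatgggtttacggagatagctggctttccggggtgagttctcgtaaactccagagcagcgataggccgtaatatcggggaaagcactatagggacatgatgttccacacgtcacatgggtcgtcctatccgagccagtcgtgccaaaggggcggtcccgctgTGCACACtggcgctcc
Mt2, chr8:94172368-94172617: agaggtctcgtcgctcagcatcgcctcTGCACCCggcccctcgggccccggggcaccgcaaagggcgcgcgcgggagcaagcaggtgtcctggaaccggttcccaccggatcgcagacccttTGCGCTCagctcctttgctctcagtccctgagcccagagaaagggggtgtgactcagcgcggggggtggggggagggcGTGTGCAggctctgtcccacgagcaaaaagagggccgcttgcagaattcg
Slc30a1, chr1:191906531-191906766: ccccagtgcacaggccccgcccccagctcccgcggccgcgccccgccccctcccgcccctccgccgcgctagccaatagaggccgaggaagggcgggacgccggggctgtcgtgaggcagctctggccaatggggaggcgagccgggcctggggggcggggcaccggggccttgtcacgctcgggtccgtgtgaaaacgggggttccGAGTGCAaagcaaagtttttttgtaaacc
Counted over the whole 300-base window of the RefSeq table (250 bases before and 50 after the start), Mt2 held 4 matches, Mt1 3, Slc30a10 3, Slc30a1 2, Slc39a5 1 at the first of its listed starts and Mtf1 0. Of the 3 matches of Mt1, 2 lie in bases after the stretch shown, as do 1 of the 4 of Mt2 and 1 of the 2 of Slc30a1. The stretch shown for Mt2 also lies inside the only exon of the antisense gene Gm45774 (chromosome 8, 94170748 to 94173412, minus strand). Of the 3 matches of Slc30a10, 2 overlap each other by all but 1 base, on opposite strands. Of all 32851 promoter windows in the table, 25.7% held at least 1 match, 7.11% at least 2, 1.97% at least 3 and 0.517% at least 4. The window of Mtf1 lies wholly inside that gene as annotated in GENCODE M21, so its count covers no base before the annotated start. Matches outside the windows were not counted. These matches describe letters and are not evidence of binding. Promoters of 6 of the 8 genes were in the table; Slc39a4 and Slc39a14 were not matched.

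Libraries of the same genotype differed from each other. Library totals ran from 5000613 to 6618204 estimated counts in Cre-positive and from 4681119 to 5705921 in Cre-negative mice. Chrm4, the floxed gene, had 13 and 5 counts in Cre-positive mice and 4, 20 and 4 in Cre-negative mice, which is too few to check the genotype. The design text speaks of the whole small intestine, yet markers of its length diverged: Slc10a2, the bile acid transporter of the ileum, had 809.9 and 45.9 CPM in the Cre-positive mice, set against 218, 376 and 6.52 CPM in the Cre-negative mice. CPM are counts scaled to library size with TMM factors, and per-mouse values follow the mouse numbers, 1 and 2 or 1, 2 and 3. Gata4, a transcription factor of the upper intestine, stood at 0.387 and 39.9 CPM in the Cre-positive mice, against 24.7, 19.8 and 47.4 CPM in the Cre-negative mice. Cre-positive 1 and Cre-negative 3 lay at opposite ends of Slc10a2 and Gata4, 2 genes chosen after their values were seen, and the other region markers did not all share that order. Slc40a1, an iron exporter of the upper intestine, had 234 and 25.2 CPM in the Cre-positive mice and 19.4, 96.7 and 8.63 CPM in the Cre-negative mice. The 6 proximal genes tested summed to 271 and 755 CPM in Cre-positive mice and 375, 158 and 1041 CPM in Cre-negative mice, and the 5 distal genes to 2174 and 1857 CPM in Cre-positive mice and 2509, 1286 and 776 CPM in Cre-negative mice. The 10 enterocyte genes summed to 7177 and 16755 CPM in Cre-positive mice and 12280, 8786 and 16866 CPM in Cre-negative mice. Of these 10, 9 were lowest in Cre-positive 1, where Fabp1 was at 0 and Vil1, the villin gene of the brush border, had 603 CPM. Of all 14352 genes tested, 4165 were lowest in that library. The muscle gene Myh11 ranged from 179.97 to 586 CPM, and 0 of 8 pancreatic acinar genes were in the table.

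Set against each other per length of transcript, Mt1 was the most abundant of the 8 transcripts in every library. Its level had a median over the 5 libraries of 256 CPM per kilobase (range 233 to 675). The brush border importer gene Slc39a4 came next, with a median of 39.9 (22.8 to 47.9). Mt2 had 23.7 (15.3 to 71.3), the exporter gene Slc30a1 21.7 (15.6 to 43.2), Slc39a14 19.6 (14.3 to 23.1) and Slc39a5 12.4 (7.45 to 14.1). Slc30a10 had 7.88 (5.17 to 14.0) and Mtf1 7.09 CPM per kilobase (4.74 to 8.47). The range of Mt1 lay above those of the other 7 genes, whereas the ranges of neighbours from Slc39a4 down to Slc39a14, and of Slc39a5, Slc30a10 and Mtf1, overlapped. With the length of all annotated exons in place of the longest consensus coding transcript, Mt2 and Slc30a1 changed places, as did Slc39a14 and Slc39a5, so those orders are not settled by these data; Mt1 stayed first, at 102 to 297 CPM per kilobase. The short transcripts of the metallothioneins, 549 and 511 bases, make their levels per kilobase the most dependent on how short fragments were recovered, which was not tested.

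None of the 8 genes passed the test between Cre-positive and Cre-negative intestine. With edgeR's quasi-likelihood test the adjusted p-values lay between 0.977 and 0.997, and over all genes 0% were called higher and 0% lower. At an unadjusted p under 0.05 there was 1 of the 8, Slc30a1, which was higher; over all genes tested 3.38% passed that limit, 1.6% as higher and 1.78% as lower. DESeq2 and limma-voom called 0 of the 8. Fold changes, on the log2 scale with Cre-positive on top, were negative for 6 and positive for 2, with a median of -0.25, beside a median of -0.04 and 54.5% negative over all genes. The labels number the mice individually, so each library is taken as 1 animal.

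**Figure D1:**
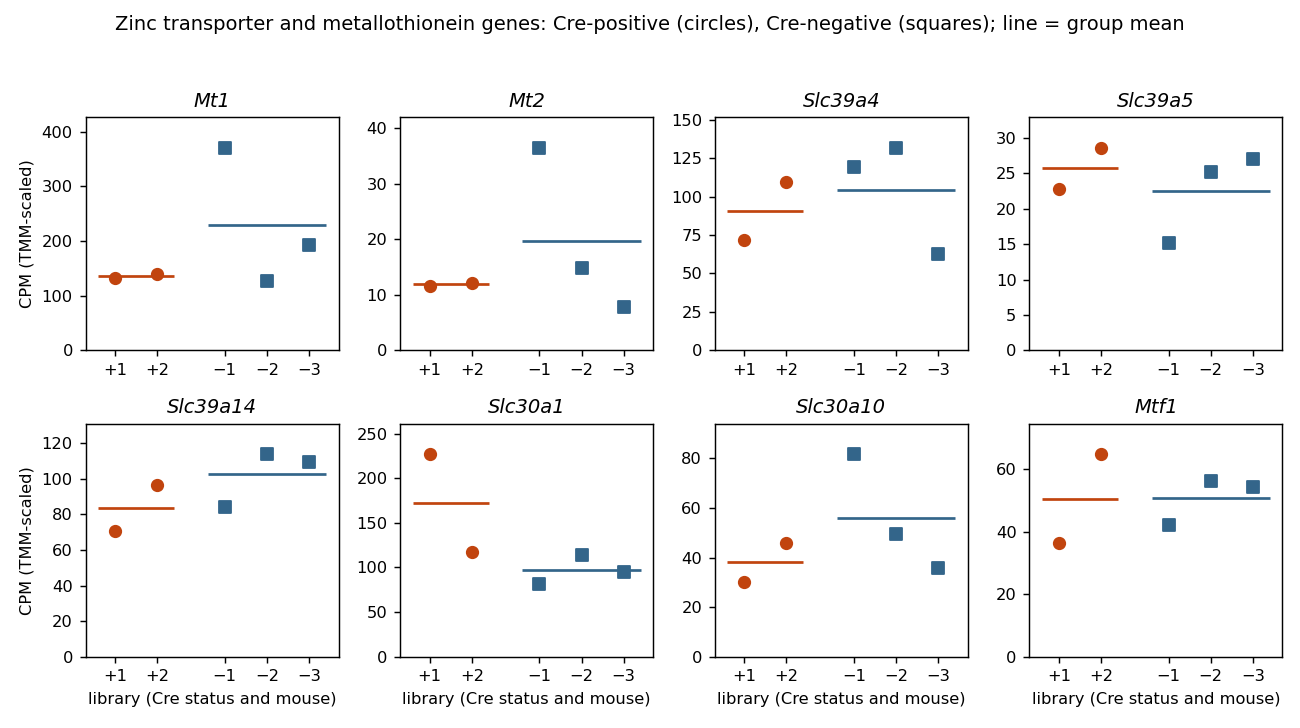
Levels of the 8 genes in each library, in TMM-scaled CPM on linear axes that start at 0, with Cre-positive mice 1 and 2 as circles, Cre-negative mice 1 to 3 as squares and the group mean as a line. Mt1, Mt2 and Slc30a10 stand highest in Cre-negative 1 (370, 36.4 and 81.7 CPM), and Slc30a1 stands highest in Cre-positive 1 (227 CPM).

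The metallothionein genes were set apart by 1 control mouse. Mt1 had 132 and 140.4 CPM in the Cre-positive mice, set against 370, 128 and 192 CPM in the Cre-negative mice. The Cre-positive mice were close together, and Cre-negative 2 lay below both, so the groups overlapped. Mt1 averaged 136 ± 5.80 CPM (SD, n = 2) in Cre-positive and 230.02 ± 126 CPM (SD, n = 3) in Cre-negative mice, a log2 fold change of -0.75 ± 0.44 (SE; edgeR adjusted p = 0.977). It shrank to -0.21 when Cre-negative 1 was left out.

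Mt2 followed Mt1 in its highest library but not in its lowest. It had 11.6 and 12.1 CPM in the Cre-positive mice, set against 36.4, 14.8 and 7.82 CPM in the Cre-negative mice. Both Cre-positive values lie inside the span of the Cre-negative ones. The log2 fold change was -0.72 ± 0.61 (SE; edgeR adjusted p = 0.977), and its sign changed, to 0.10, when Cre-negative 1 was left out. These values rest on 48 to 152 counts per library, and the exact Poisson 95% interval, which covers counting error only, ran from 30.9 to 42.7 CPM in Cre-negative 1 and from 5.77 to 10.4 CPM in Cre-negative 3. The antisense gene Gm45774 covers 73.5% of the exon bases of Mt2 on the opposite strand, and the sources used here do not say whether counting used strand. Gm45774 had 6 and 8 counts in Cre-positive mice and 26, 3 and 8 in Cre-negative mice, and the summed counts of the pair, 66 and 86 in Cre-positive mice and 178, 83 and 56 in Cre-negative mice, keep Cre-negative 1 the highest.

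Most metallothionein counts came from Mt1 in every library. Mt1 held 91.9% of the counts of the pair in Cre-positive 1 (exact 95% binomial interval 89.7 to 93.8) and 92.0% in Cre-positive 2 (90.2 to 93.7). It held 91.0% (89.6 to 92.4), 89.6% (87.2 to 91.7) and 96.1% (94.8 to 97.1) in Cre-negative 1, 2 and 3. The intervals of 4 libraries overlap around a ratio of about 8.61 to 11.6 Mt1 per Mt2, and Cre-negative 3, with 24.5, lies outside them. These intervals cover counting error only, not the spread between mice. Gm45774 covers 73.5% of the exon bases of Mt2, whereas 0 of the 50-base windows of Mt1 were shared with another gene. How reads in that overlap were counted is not stated, and its part in the Mt1 share was not tested.

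Markers of smooth muscle and of fibroblasts were also highest in Cre-negative 1. The 6 smooth muscle genes (Acta2, Actg2, Myh11, Tagln, Des and Cnn1) summed to 569 and 609.97 CPM in the Cre-positive mice, set against 1822, 863 and 590.1 CPM in the Cre-negative mice. The 6 fibroblast genes summed to 361 and 213 CPM in Cre-positive mice, against 654, 357 and 188 CPM in Cre-negative mice. Cre-negative 1 was the highest for both lists, for Mt1 and for Mt2, and no marker of either list was at 0 in any library. In whole tissue, fewer cells of a type and less RNA per cell cannot be told apart. The 8 genes that glucocorticoids induce summed to 373 and 484 CPM in Cre-positive mice and 689, 298 and 447 CPM in Cre-negative mice. Of these 8, 6 were highest in Cre-negative 1, as were 26.2% of all genes tested. The parts of smooth muscle, of fibroblasts and of glucocorticoid action in the metallothionein values were not tested.

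**Figure D2:**
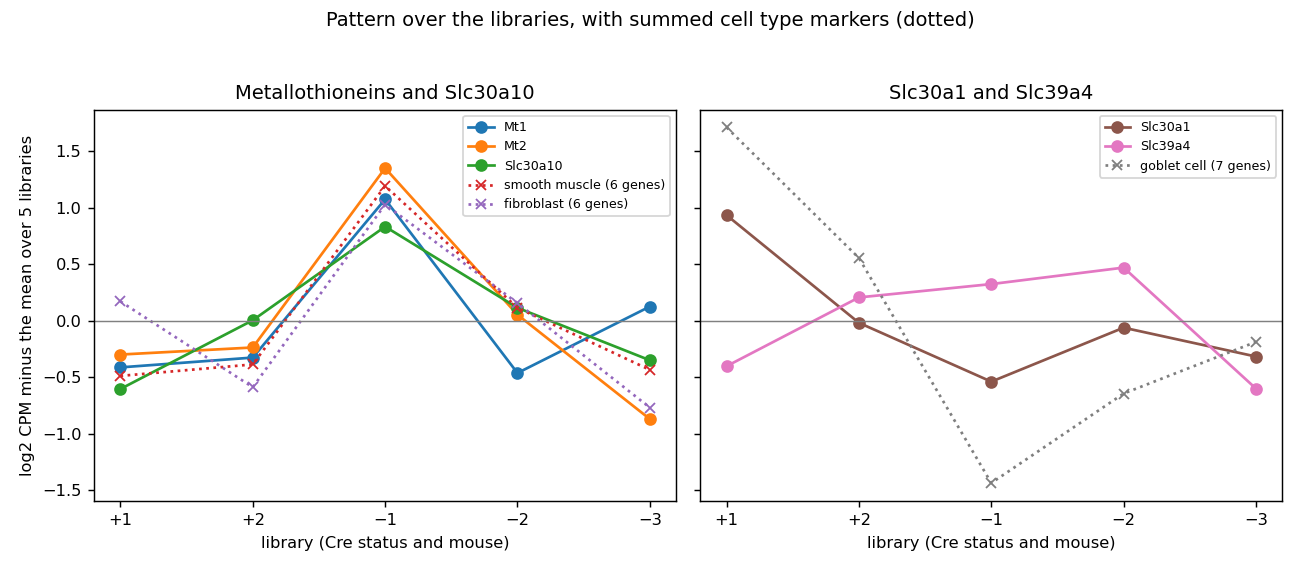
Log2 CPM of single genes (solid lines) and of summed marker lists (dotted lines), each minus its own mean over the 5 libraries; lines only join the values of 1 gene or list, and the mice have no order. On the left, Mt1, Mt2, Slc30a10 and the smooth muscle and fibroblast lists peak in Cre-negative 1. On the right, Slc30a1 and the goblet cell list are highest in Cre-positive 1 and next highest in Cre-positive 2. Slc39a4 does not peak in Cre-positive 1.

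The genes whose pattern was nearest to the metallothioneins were sought among 8573 genes whose mean log2 CPM was 3 or more, as the smallest root mean square difference of centred log2 CPM over the 5 libraries. For Mt2 these were Ano1, a calcium-activated chloride channel gene, Lrrn4 and the caveolar coat gene Cavin1, with differences of 0.07, 0.08 and 0.08 on the log2 scale. Cavin1 had 40.1 and 41.97 CPM in the Cre-positive mice, set against 114.5, 44.7 and 27.7 CPM in the Cre-negative mice. For Mt1 they were the peroxidasin gene Pxdn, the immediate early gene Fos and the thioesterase gene Acot2, with 0.14, 0.15 and 0.19. Fos had 41.0 and 53.0 CPM in the Cre-positive mice, set against 124, 35.4 and 58.5 CPM in the Cre-negative mice. With 5 libraries such a likeness describes mainly which mouse was high.

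The basolateral zinc exporter gene Slc30a1 was the 1 gene of the 8 whose groups did not overlap, where 18% of all genes tested did not overlap, 7.89% with the Cre-positive mice higher. Slc30a1 (chromosome 1, 191906767 to 191913247, plus strand, 2 exons) had 227 and 117 CPM in the Cre-positive mice, set against 81.7, 113.8 and 95.3 CPM in the Cre-negative mice. Cre-positive 1 was well above the other mice, while Cre-positive 2 lay just above Cre-negative 2. On the log2 scale the fold change was 0.83 ± 0.31 (SE), with an unadjusted 95% interval of 0.09 to 1.56, and it did not pass over all genes (edgeR unadjusted p = 0.0322, adjusted p = 0.977). It was 0.30 when Cre-positive 1 was left out, 1.26 when Cre-positive 2 was, and 0.27 without both libraries at the ends of Slc10a2 and Gata4. Slc30a1 is a target of MTF1 as Mt1 and Mt2 are. It was lowest in Cre-negative 1, where those genes were highest, and the part of MTF1 in these values was not tested.

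Summed goblet cell markers were higher in both Cre-positive mice than in any control, and summed lymphocyte markers stood out in Cre-positive 1. The 7 goblet cell genes (Muc2, Clca1, Tff3, Zg16, Fcgbp, Agr2 and Spink4) summed to 5079 and 2279 CPM in the Cre-positive mice, set against 574, 993 and 1363 CPM in the Cre-negative mice. All 7 had positive log2 fold changes, and 0 were called. For 6 of them the groups did not overlap, as for 7.89% of all genes tested in that direction. Ptprc, the pan-leukocyte gene, had 159 and 14.9 CPM in the Cre-positive mice, set against 19.9, 16.3 and 15.5 CPM in the Cre-negative mice. Of the 7 lymphocyte markers 3 passed the filter (Ptprc, Cd8a and Ighm), and these summed to 282 and 19.0 CPM in Cre-positive mice and 23.7, 19.8 and 18.6 CPM in Cre-negative mice. The B cell marker Cd79a had 48 and 0 counts in Cre-positive mice and 0 in each Cre-negative mouse. No goblet cell marker was at 0. The part of these cells, and of the stretch of intestine sampled, in the Slc30a1 value was not tested. The exons of Slc30a1 share 468 bases with the antisense gene 1700034H15Rik, which had 8 to 19 counts per library beside 341 to 1172 of Slc30a1. The deposited counts of Slc30a1 were not whole in 5 of 5 libraries. Among the other members that overlap a gene, this held in 5 libraries for Mtf1, 1 for Mt2 and 0 for Slc30a10. It held in 3 for Mt1, which has no such overlap.

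The other exporter gene, Slc30a10, a manganese exporter of enterocytes and liver, was highest in the same control mouse as the metallothioneins. Slc30a10 (chromosome 1, 185454848 to 185468762, plus strand, 4 exons) had 30.2 and 46.0 CPM in the Cre-positive mice, set against 81.7, 49.7 and 36.0 CPM in the Cre-negative mice. Cre-negative 1 was the highest, Cre-positive 1 the lowest, and the groups overlapped. Its log2 fold change was -0.55 ± 0.39 (SE; edgeR adjusted p = 0.977), and leaving out 1 mouse gave -0.14 (Cre-negative 1), -0.23 (Cre-positive 1) or -0.84 (Cre-positive 2). The non-coding gene Gm2061 starts within it on the opposite strand and shares 533 exon bases. Gm2061 had 13.4 and 15.4 CPM in the Cre-positive mice, set against 40.3, 20.8 and 14.0 CPM in the Cre-negative mice, so it too was highest in Cre-negative 1.

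The groups overlapped for all 3 importer genes. Slc39a4 (chromosome 15, 76612383 to 76617384, minus strand, 12 exons) had 72.0 and 109.7 CPM in the Cre-positive mice, set against 119, 132 and 62.7 CPM in the Cre-negative mice. Cre-positive 1 and Cre-negative 3 were the pair with the lowest values. Cre-positive 1 also had the lowest sum of enterocyte genes. Cre-negative 3 had the highest sum (16866 CPM), close to that of Cre-positive 2 (16755 CPM). The part of enterocytes in the Slc39a4 value was not tested. The fitted log2 fold change was -0.20 ± 0.36 (SE; edgeR adjusted p = 0.977), with a 95% interval of -1.05 to 0.65, and leaving out 1 mouse gave 0.11 (Cre-positive 1), -0.50 (Cre-positive 2), -0.43 (Cre-negative 3), -0.07 (Cre-negative 1) or a value close to 0 (-0.00028, Cre-negative 2). The genes nearest to its pattern were Ahdc1, the lymphocyte survival factor gene Tnfsf13b and the protein kinase C epsilon gene Prkce, at 0.07, 0.07 and 0.13 on the log2 scale.

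Slc39a5, an importer of the basolateral membrane of enterocytes, is on chromosome 10 (128395931 to 128401229, minus strand, 11 exons). It had 22.8 and 28.6 CPM in the Cre-positive mice, set against 15.1, 25.2 and 27.0 CPM in the Cre-negative mice. It was lowest in Cre-negative 1, where Mt1, Mt2 and Slc30a10 were highest. Its log2 fold change was 0.19 ± 0.31 (SE; edgeR adjusted p = 0.977), from 63 to 184 counts per library, and leaving out 1 mouse gave 0.0037 (Cre-negative 1), 0.053 (Cre-positive 2), 0.38 (Cre-negative 3) or 0.37 (Cre-positive 1).

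Slc39a14, an importer of manganese, iron and zinc that inflammation induces in liver, is on chromosome 14 (70303469 to 70351425, minus strand, 10 exons). It had 70.6 and 96.7 CPM in the Cre-positive mice, set against 84.3, 113.8 and 109 CPM in the Cre-negative mice. Its highest library was 1.61 times its lowest, the narrowest span of the 8. The fitted log2 fold change was -0.29 ± 0.24 (SE; edgeR adjusted p = 0.977), and leaving out 1 mouse gave -0.05 (Cre-positive 1) or -0.50 (Cre-positive 2). The cytokine gene Il6, an inducer of Slc39a14 and of metallothioneins in liver, had 6.39 and 3.42 CPM in the Cre-positive mice, set against 28.8, 18.0 and 8.47 CPM in the Cre-negative mice. Il6 was thus highest in Cre-negative 1, as were Mt1 and Mt2 (370 and 36.4 CPM), while Slc39a14 was not. The Il6 groups did not overlap, with the Cre-positive mice lower, as for 10.2% of all genes tested in that direction. Of the 9 IL-6 and acute phase genes tested, 3 were highest in Cre-negative 1, Il6 included. Socs3, also of that list, peaked in Cre-negative 2 instead (38.0 CPM, beside 17.0 for Cre-negative 1). The log2 fold change of Il6 was -1.91 ± 0.58 (SE), and it was not called (edgeR unadjusted p = 0.0134, adjusted p = 0.977). The part of Il6 in the Slc39a14 and metallothionein values was not tested.

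Mtf1, which encodes the zinc-sensing transcription factor, had close mean levels in both groups. Mtf1 (chromosome 4, 124802104 to 124849800, plus strand, 11 exons) averaged 50.4 ± 20.1 CPM (SD, n = 2) in Cre-positive and 50.7 ± 7.68 CPM (SD, n = 3) in Cre-negative mice. The Cre-positive mice were the lowest and the highest of the 5, at 36.2 and 64.7 CPM, and enclosed the Cre-negative values of 41.9, 56.1 and 54.1 CPM. Its log2 fold change was -0.01 ± 0.30 (SE; edgeR adjusted p = 0.997), and the 95% interval of -0.71 to 0.70 leaves room for changes in either direction. Leaving out 1 Cre-positive mouse gave 0.38 (without mouse 1) or -0.45 (without mouse 2). Cre-negative 1, highest in Mt1 and Mt2, had the lowest Mtf1 transcript level of its group. The activity of the MTF1 protein was not measured. Its exons share 721 bases with 1110065P20Rik on the opposite strand, which had 2 to 12 counts per library, and its deposited counts were not whole in 5 of 5 libraries.

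**Figure D3:**
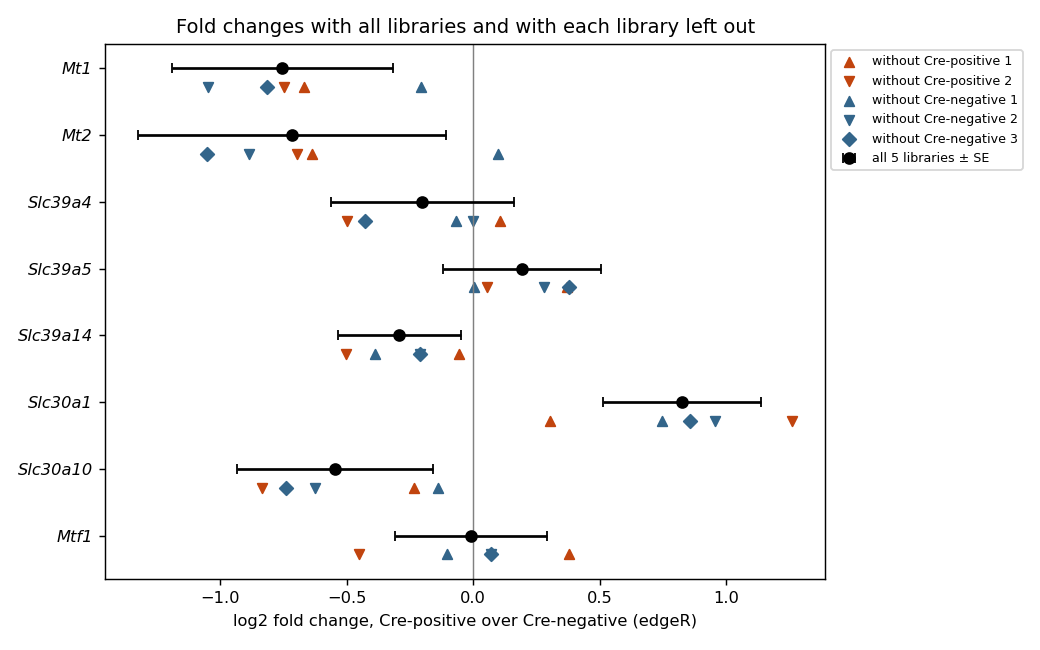
Log2 fold changes, Cre-positive over Cre-negative, for the 8 genes, with all 5 libraries (black, bars are SE) and with each library left out (coloured marks). For Mt1 and Mt2 the value nearest to or past 0 is the one without Cre-negative 1 (-0.21 and 0.10), and for Slc30a1 it is the one without Cre-positive 1 (0.30).

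Of the 8 genes, the metallothioneins and exporters had the widest spans between mice. The highest library exceeded the lowest 4.66 times for Mt2, 2.90 times for Mt1, 2.78 times for Slc30a1 and 2.71 times for Slc30a10, where the median over 8581 genes whose mean log2 CPM was 3 or more was 1.68. That background was not matched on abundance, and counting error widens the span of genes with few counts, such as Mt2. Mt2 lay above 95.5% of those genes and Slc39a14 above 44.0%. The counting intervals of the highest and lowest Mt2 libraries did not overlap. No library was the highest for all 8: it was Cre-negative 1 for 3 genes, Cre-positive 2 and Cre-negative 2 for 2 each and Cre-positive 1 for 1. Over all genes tested, the highest library was Cre-negative 1 for 26.2% and Cre-positive 1 for 25.3%. It was Cre-positive 2 for 14.5%, and Cre-negative 2 and Cre-negative 3 for 17.0% each.

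The rest of the transporter families also had 0 genes called. Of 11 other ZIP genes, 10 were in the table and 9 were tested, 4 with positive and 5 with negative log2 fold changes and a median of -0.01. Slc39a8, which carries manganese and zinc, was the gene with the smallest p: it had 28.6 and 22.5 CPM in the Cre-positive mice, set against 52.0, 56.5 and 31.8 CPM in the Cre-negative mice (log2 fold change -0.87 ± 0.31, SE; edgeR unadjusted p = 0.0262, adjusted p = 0.977). Its groups did not overlap, as for 10.2% of all genes in that direction. The most abundant other ZIP gene by CPM, Slc39a9, an importer of the Golgi and cell surface, had 164 and 230 CPM in the Cre-positive mice, set against 153, 199 and 179 CPM in the Cre-negative mice. Slc39a1, at 48.0 and 56.9 CPM in Cre-positive mice and 58.7, 59.3 and 41.1 CPM in Cre-negative mice, had a log2 fold change of -0.01. Slc39a3, Slc39a6, Slc39a7, Slc39a10, Slc39a11 and Slc39a13 averaged under 15 CPM in each group, with log2 fold changes between -0.49 and 0.14. Slc39a2 had 1 to 4 counts per library and was not tested.

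Of 8 other ZnT genes, 6 were in the table and tested, 4 positive and 2 negative, with a median of 0.14. Slc30a4, a vesicular transporter of the gut epithelium and mammary gland, had the most counts, at 402 and 428 CPM in the Cre-positive mice, set against 353, 349 and 514 CPM in the Cre-negative mice (log2 fold change 0.03 ± 0.26, SE). Slc30a7, which loads zinc into the secretory pathway, had 117.7 and 118 CPM in the Cre-positive mice, set against 75.2, 98.2 and 97.8 CPM in the Cre-negative mice (0.38 ± 0.21, SE; edgeR adjusted p = 0.977). Its groups did not overlap, as for 7.89% of all genes in that direction. The log2 fold changes of Slc30a5, Slc30a6 and Slc30a9 were 0.25, 0.37 and -0.06. Slc30a2, the exporter that fills Paneth cell granules with zinc, had 13.5 and 23.3 CPM in the Cre-positive mice, set against 27.8, 22.4 and 23.1 CPM in the Cre-negative mice (-0.40 ± 0.31, SE; edgeR adjusted p = 0.977). The 8 Paneth cell markers summed to 1657 and 1710 CPM in Cre-positive mice, against 1357, 2792 and 2567 CPM in Cre-negative mice. Most of that sum was Lyz1, with 1228 CPM in Cre-negative 1. Cre-negative 1 had the lowest sum and the highest Slc30a2, and the part of Paneth cells in the Slc30a2 value was not tested. Mt3 and Mt4, the brain and squamous epithelium metallothioneins, were not among the genes of the table used.

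**Figure D4:**
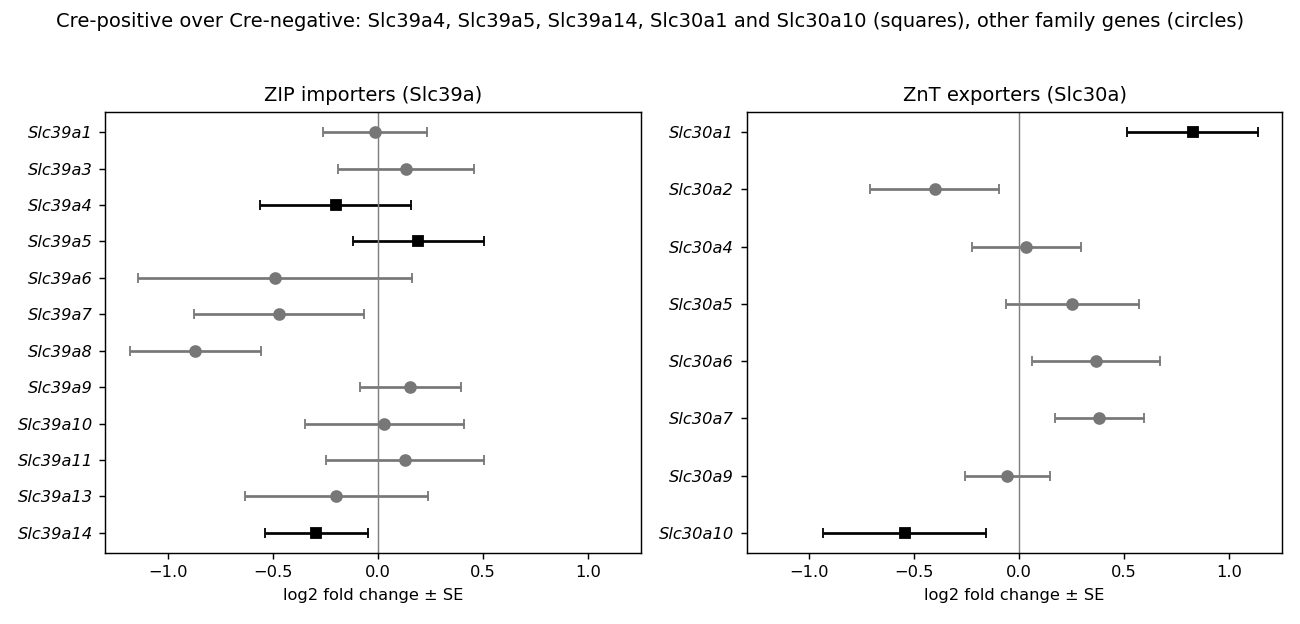
Log2 fold changes, Cre-positive over Cre-negative, with SE for the tested ZIP genes (left) and ZnT genes (right); squares are Slc39a4, Slc39a5, Slc39a14, Slc30a1 and Slc30a10, circles the rest of each family. Values lie on both sides of 0, from -0.87 for Slc39a8 to 0.83 for Slc30a1.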

How the data were processed

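Total RNA of small intestine from 5 mice was sequenced after depletion of ribosomal RNA (labels' protocols). The authors deposited 1 table of estimated counts per gene symbol, not scaled; Partek and the mm10 build are named in the submitters' processing notes, while aligner, annotation, strand setting and version are not stated in the sources used here. In each library 19.6% to 21.7% of the deposited values differed by more than 0.005 from a whole number. How such values arose is not stated in the sources used here. Estimated counts were rounded to whole numbers. Groups follow the genotype label. The main test was edgeR 4.0.16 (R 4.3.3) on all 5 libraries: TMM scaling, filterByExpr (min.count 10), glmQLFit with robust estimation on genotype, Benjamini-Hochberg adjustment over 14352 genes, threshold 0.05, with 3 residual degrees of freedom; standard errors are the fold change over the square root of F. Fold changes have Cre-positive on top. The scripts were tested on simulated data. DESeq2 1.42.0, limma-voom (limma 3.58.1), other scalings, filters and left-out libraries were tried as alternatives. No 2 libraries agreed within sampling noise (lowest chi-square per degree of freedom 10.2). Coordinates, transcript lengths, coding sequences and overlaps are from GENCODE M21 on GRCm38, the assembly mm10 denotes. Named genes were the 8 members, the genes of lists of related genes and markers in list order, and for Mt1, Mt2 and Slc39a4 the 3 genes nearest in pattern; marker, region and partner genes were added beside results after their values were seen. The members and lists were chosen with earlier results of these data known.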

Additional observations from a re-analysis of the deposited data

How the results depend on the processing

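Over all genes, edgeR called 0 higher and 0 lower, also with RLE, upper-quartile or total-count scaling, limma-voom, no robust estimation, no filter, a filter of 5 CPM in 2 libraries, counts not rounded and an adjusted p threshold of 0.1. DESeq2 called 12 higher and 7 lower. With each library left out in turn, the calls ranged from 0 to 58 higher, the 58 without Cre-positive 2, and were 0 lower; the lone Cre-positive library is then assumed to vary like the others. None of the 8 genes was called under any of these alternatives, in 120 pairs of gene and alternative, of which 110 kept the direction. Of the reversals, Mtf1 was 0.0176 with RLE scaling, 0.0177 with DESeq2, 0.0281 without a filter, 0.00671 with 5 CPM in 2 libraries and 0.41 without the 2 libraries at the ends of Slc10a2 and Gata4, Cre-positive 1 and Cre-negative 3, an alternative added after seeing the data. With libraries left out in turn, Mtf1 ranged from -0.45 to 0.38, Mt2 from -1.05 to 0.10 and Slc39a4 from -0.50 to 0.11. Without both libraries at the ends of Slc10a2 and Gata4, Slc30a1 was 0.27 and Mt2 -1.06. The cause of these shifts was not tested. No paired analysis was possible because the labels give no replicate numbers that the groups share. With 2 against 3 mice, and 48 to 152 counts for Mt2, changes of the size seen between mice of 1 group cannot be resolved.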

Other observations

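Genes of neighbouring pathways gave 0 calls as well. Of 7 copper handling genes tested, 1 had a positive and 6 a negative log2 fold change, with a median of -0.18 beside -0.04 over all genes. Slc31a1, the main copper importer, had 233 and 478 CPM in the Cre-positive mice, set against 468, 315 and 298 CPM in the Cre-negative mice. Atp7b, a copper-exporting ATPase gene, had 1.35 and 12.9 CPM in the Cre-positive mice, set against 16.8, 10.7 and 13.0 CPM in the Cre-negative mice. Of 7 oxidative stress genes, 3 were positive and 4 negative, with a median of -0.08. Hmox1, the heme oxygenase gene that metals and oxidants induce, had 7.55 and 7.77 CPM in the Cre-positive mice, set against 15.1, 4.82 and 2.61 CPM in the Cre-negative mice.

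Of 8 genes that glucocorticoids induce, 2 were positive and 6 negative, with a median of -0.43. Fkbp5, the usual reporter of receptor activity, had 31.9 and 19.7 CPM in the Cre-positive mice, set against 23.7, 31.1 and 17.1 CPM in the Cre-negative mice. Sgk1 had 241 and 345 CPM in the Cre-positive mice, set against 428, 134 and 276 CPM in the Cre-negative mice. Fkbp5 and Tsc22d3 were the 2 genes of the list that were not highest in Cre-negative 1. Per1 had 10.1 and 7.46 CPM in the Cre-positive mice, set against 13.4, 8.34 and 12.7 CPM in the Cre-negative mice. Of 9 IL-6 and acute phase genes tested, of 11 in the list, 4 were positive and 5 negative, with a median of -0.46.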
